A study of Mus musculus with 15 samples.

Results

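The 38 genes described here encode the machinery of glycolysis and of the transcriptional response to low oxygen, and they were followed in regulatory T cells (Tregs) of mouse skin and lymph nodes. The members were taken by name: 2 glucose transporters, 14 glycolytic enzymes, 4 genes of lactate and monocarboxylate handling, 3 regulators of flux, 4 genes of oxygen sensing and 11 targets of hypoxia-inducible factor (HIF). All 38 are rows of the count table of 24015 genes, and all 38 were among the 13578 genes that passed the filter on low counts. The rule that picks them names genes and uses no measured value, but the list was chosen with earlier results of these data known. Counts of members set beside the share of all genes below are therefore descriptions.

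Adult C57BL/6 mice carried the Foxp3 cre-eyfp allele in every group, so that Foxp3, the gene of the factor that defines Tregs, drives the Cre recombinase and a yellow fluorescent protein in these cells. Cells positive for CD45, CD3, CD4 and this protein were sorted and their RNA was sequenced in 15 libraries, 3 for each of 5 groups. Wild-type (WT) Tregs came from axillary lymph nodes (LN), from untreated skin and from skin treated with MC903, a vitamin D analogue that inflames skin. Mice called cKO also carried Rora fl/fl, which lets Cre remove part of the gene of the nuclear receptor ROR-alpha in Foxp3-expressing cells, and their Tregs came from untreated and from MC903-treated skin. MC903 in ethanol was put on the ears 4 times. Untreated mice received nothing, and a vehicle group was not analysed here. Treated Tregs came from ears and untreated ones from back skin with ears, so site and treatment cannot be told apart. Skin went through 90 minutes of enzyme digestion and LN were only homogenised, so digestion and tissue cannot be told apart either. Whether animals were pooled is not stated, and p-values below measure the spread between these samples.

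Total counts ran from 19.8 to 27.7 M (M, mega) per library. Values are given as counts per M of the library size after TMM scaling (CPM). Rora, the targeted gene, ran from 1327 to 1510.1 CPM in WT and from 822 to 1199 CPM in cKO untreated skin. In the MC903 groups it ran from 739 to 813 CPM in WT and from 473 to 632 CPM in cKO. Averaged over both treatments its log2 difference, cKO minus WT, was -0.50 ± 0.10 (SE, adjusted p = 0.0193, edgeR). Counts were summed over whole genes, so reads of the floxed part cannot be singled out. The 9 T cell and Treg defining markers, among them Foxp3, Cd4 and Cd3e, were read in every group, with a summed level of 5721 to 6965 CPM in LN and 7456 to 10102 CPM in skin libraries. In the bulk libraries, fewer cells of a kind and less RNA per cell cannot be told apart.

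Glycolysis splits glucose into pyruvate, which lactate dehydrogenase turns into lactate, and monocarboxylate transporters carry lactate across the plasma membrane. HIF-1-alpha, the product of Hif1a, is made steadily and destroyed when oxygen is present, because the prolyl hydroxylases of the Egln genes mark it for degradation. In low oxygen it persists, pairs with ARNT and binds a short DNA core in genes of glycolysis, vessel growth and mitochondrial turnover, and in Egln3 itself. In T cells HIF-1-alpha also accumulates after antigen receptor and mTOR signalling, and the balance of glycolysis and oxidation bears on Treg stability and migration. The transcript of Hif1a is not a measure of its protein.

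Promoters are shown for Egln3, Vegfa and Higd1a, the oxygen sensing and HIF target genes with the smallest adjusted p in skin against LN among those in the RefSeq promoter table, and for Hif1a itself. They are marked for the core that HIF binds, searched as the letters ACGTG or GCGTG on both strands. Capitals mark these letters or their reverse complement, and each run is the 250 bases before the start site, 5′ to 3′ on the gene's strand, in build GRCm38.p6 from RefSeq. Egln3 (chr12:54203875-54204124) and Hif1a (chr12:73907617-73907866) belong to oxygen sensing, and Vegfa (chr17:46025164-46025413) and Higd1a (chr9:121857797-121858046) are HIF targets. Hif1a lies on the plus strand and the other three on the minus strand.
Egln3: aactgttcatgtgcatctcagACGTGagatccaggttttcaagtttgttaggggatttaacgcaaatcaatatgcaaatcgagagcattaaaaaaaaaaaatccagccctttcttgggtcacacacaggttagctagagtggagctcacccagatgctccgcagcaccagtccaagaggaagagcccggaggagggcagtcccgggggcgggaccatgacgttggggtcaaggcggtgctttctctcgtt
Hif1a: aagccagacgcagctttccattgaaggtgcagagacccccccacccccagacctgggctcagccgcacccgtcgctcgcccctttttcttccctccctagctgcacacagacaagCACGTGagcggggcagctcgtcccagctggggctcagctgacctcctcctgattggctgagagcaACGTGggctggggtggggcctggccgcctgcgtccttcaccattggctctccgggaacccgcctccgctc
Vegfa: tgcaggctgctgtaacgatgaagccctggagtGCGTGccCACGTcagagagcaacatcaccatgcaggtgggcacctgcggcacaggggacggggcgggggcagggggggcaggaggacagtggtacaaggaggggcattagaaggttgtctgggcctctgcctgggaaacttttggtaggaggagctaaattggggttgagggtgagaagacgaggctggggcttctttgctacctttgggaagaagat
Higd1a: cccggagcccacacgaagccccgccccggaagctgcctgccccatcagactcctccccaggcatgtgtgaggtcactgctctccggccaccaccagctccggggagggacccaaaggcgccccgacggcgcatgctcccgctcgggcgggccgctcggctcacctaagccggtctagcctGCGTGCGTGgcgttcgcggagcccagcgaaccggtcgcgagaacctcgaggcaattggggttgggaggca
The Egln3 window held 1 match, at position -229 from the start site. The Vegfa window held 2, at -218 and -211. A further start site of Vegfa (chr17:46032378-46032627) held none. On the minus strand that further site lies upstream, so the Vegfa letters marked here lie within the gene as read from it. The window of the upstream start thus shows no HIF core. In Hif1a the letters CACGTG read as a match on both strands, at -135 and -134, beside another at -70. Higd1a held overlapping matches at -70 and -66, and another at 44 bases past the start site, outside the bases shown.

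Of the 38 members, 35 had a promoter in the table, in 53 windows of 300 bases (250 before and 50 after the start site). The HIF core letters stood in at least 1 window of 32 of the 35 (91.4%), against 65.9% of the 10216 tested genes in the table and 46.7% of all 27018 genes. Vegfa counts among the 32 only through the window of its downstream start site. By window the shares were 79.2% of members and 60.2% of tested genes. The median window held 20 CG pairs in members, 19 in tested genes and 7 in all genes, and the core itself contains CG. AGGTCA, the core letters that nuclear receptors such as ROR-alpha bind, stood on either strand in 7 of 35 members (20.0%), in 14.9% of tested genes and in 18.1% of all genes, and a match of one motif cannot contain a match of the other. HIF targets were named into the list, so a high share of the HIF core may be built into it. A match of letters is a description of the window and not a binding site.

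WT Tregs of untreated skin were compared with those of LN to find what sets skin Tregs apart. Skin Tregs held more transcript of most of these genes: 27 of 38 rose and 5 fell, while 6 stayed short of the threshold. The largest changes were in HIF targets and in Egln3, with fitted folds of 18.8 to 87.9 over LN for Egln3, Ndrg1, Mxi1, Adm and Vegfa, while the glycolytic enzymes that rose did so by 1.21 to 3.96 times. The background was high in this contrast: 28.8% of all tested genes rose and 28.8% fell (quasi-likelihood test of edgeR over 13578 genes, Benjamini-Hochberg adjusted p under 0.05). The median log2 change was 1.07 over the members and 0.0074 over all tested genes. Member transcripts together made up 0.567 to 0.660% of counts in LN libraries and 1.001 to 1.192% in the 12 skin libraries. Ldha, Gapdh and Aldoa weigh most in these shares. Their means were 1352, 630 and 562 CPM in LN and 2539, 1708 and 1879 CPM in WT untreated skin. Leaving out any 1 of the LN libraries, or replicate 3 of WT untreated skin, brought the 5 lower calls to 3. In 29 members the 3 skin libraries lay above the 3 LN libraries, in 5 below, and in 4 they overlapped, against 30.1% of tested genes above and 33.4% below.

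**Figure D1:**
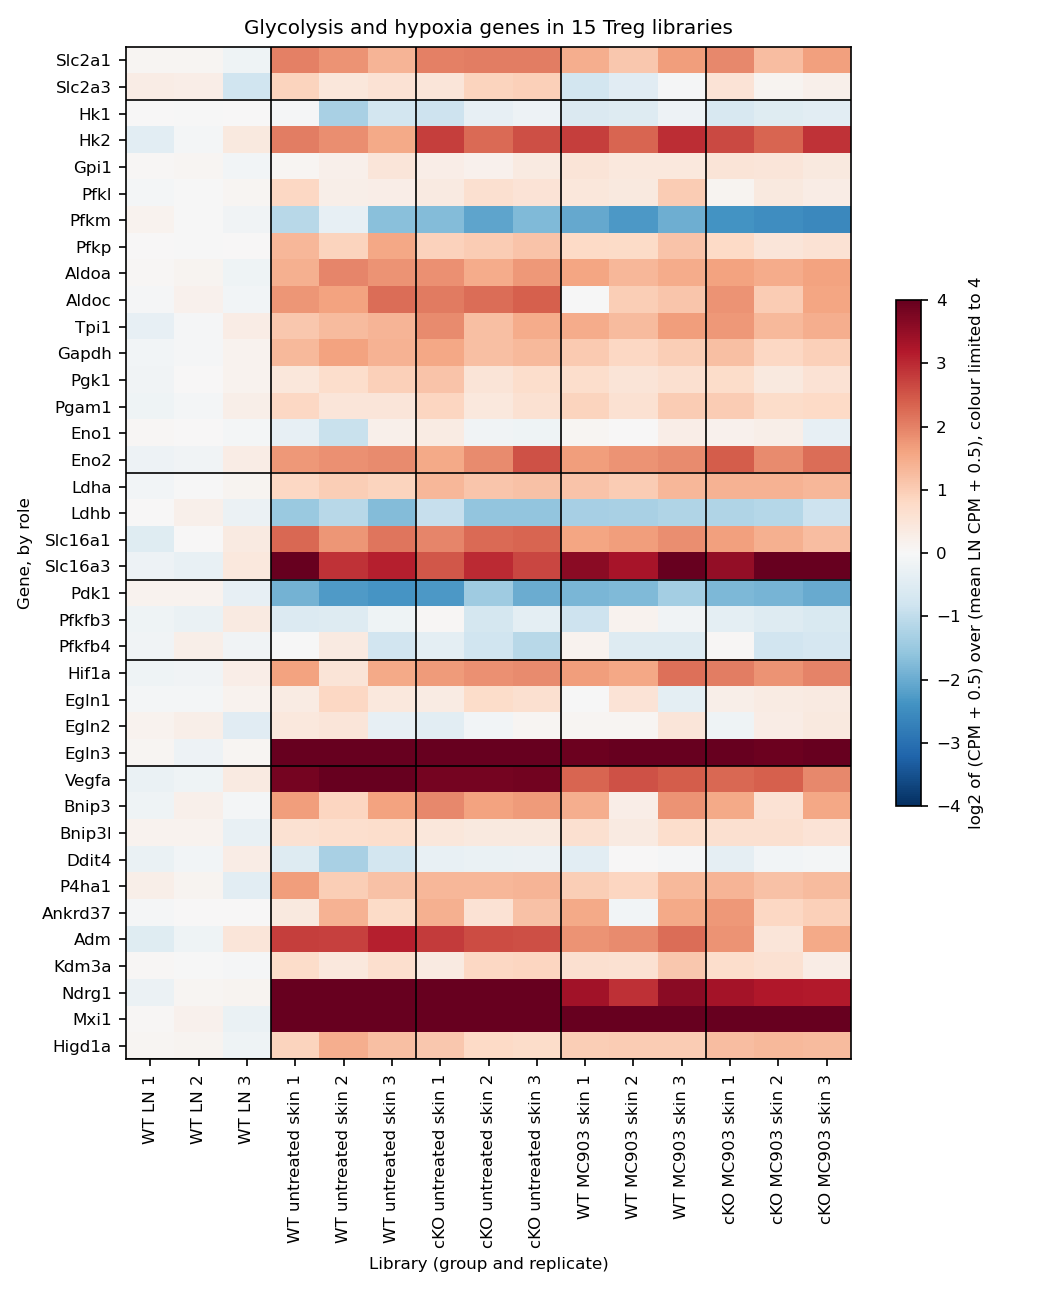
Each cell is the log2 ratio of a gene's CPM in one library to its mean in the 3 LN libraries (0.5 CPM added to both), with genes in rows by role and libraries in columns by group, and colour limited to 4. Egln3, Ndrg1 and Mxi1 are at the top of the scale in untreated skin, Vegfa is paler in the MC903 groups, and Pdk1, Ldhb, Pfkm and Hk1 lie below LN.

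Among the glucose transporters, Slc2a1, which encodes GLUT1, was read at 54.3, 54.2 and 44.9 CPM in the LN libraries and at 207, 179 and 132 CPM in WT untreated skin. Every skin library lay more than 2 times above every LN library. The log2 change was 1.76 ± 0.19 (SE, n = 3 per group, adjusted p = 1.60e-06, edgeR). Slc2a3, which encodes GLUT3, had 81.3, 78.6 and 37.4 CPM in LN and 121, 89.2 and 98.2 CPM in skin, so the groups were apart by a small margin and LN replicate 3 was low. Its change of 0.65 ± 0.25 passed the test (adjusted p = 0.0402), but not without replicate 3 of LN, replicate 1 or 3 of WT untreated skin or replicate 2 of cKO untreated skin (adjusted p = 0.0509 to 0.146).

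Of the 14 glycolytic enzymes, 11 rose, 2 fell and Eno1 did not pass. Aldolase A (Aldoa), which splits the 6-carbon sugar, had 579, 608 and 499 CPM in LN and 1506, 2163 and 1968 CPM in skin, a log2 change of 1.74 ± 0.15 (adjusted p = 7.40e-08). Gapdh, the next enzyme but one, had 580.4, 615 and 696 CPM in LN against 1536, 1926 and 1661 CPM in skin (1.44 ± 0.14, adjusted p = 3.16e-07). For both enzymes the libraries of the tissues were far apart. Phosphofructokinase is the committed step, and its platelet form Pfkp rose from 152, 149.8 and 151 CPM to 381, 283 and 438 CPM (1.28 ± 0.15, adjusted p = 3.62e-06). Hexokinase 2 (Hk2), the inducible form that traps glucose in the cell, was low in LN, at 2.10, 2.82 and 4.05 CPM, and reached 13.9, 12.3 and 9.48 CPM in skin. No library overlapped, and its log2 change was 1.99 ± 0.27 (adjusted p = 1.60e-05).

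The enzymes that fell were other forms of the same steps. Hk1, the constitutive hexokinase, had 138, 136 and 139 CPM in LN and 133, 56.2 and 82.2 CPM in skin (-0.61 ± 0.23, adjusted p = 0.0356). Skin replicate 1 was close to the LN libraries, and replicate 2 was the lowest. Pfkm, the muscle form of phosphofructokinase, had 11.9, 10.5 and 9.73 CPM in LN and 4.68, 8.49 and 3.02 CPM in skin (-0.99 ± 0.37, adjusted p = 0.0310). The call of Hk1 ended without any LN library, replicate 2 or 3 of WT untreated skin or replicate 1 of WT MC903 skin (adjusted p = 0.0570 to 0.149), and that of Pfkm without any LN library or replicate 1 or 3 of WT untreated skin (adjusted p = 0.0517 to 0.117).

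The remaining enzymes that rose were Aldoc (1.98 ± 0.30), Eno2 (1.98 ± 0.28), Tpi1 (1.24 ± 0.19), Pgk1 (0.72 ± 0.17), Pgam1 (0.61 ± 0.15), Pfkl (0.47 ± 0.18) and Gpi1 (0.28 ± 0.11), all as log2 change with SE. The small rises of Gpi1 and Pfkl were the least stable. Gpi1 lost its call without any of 12 libraries, which are all but replicates 1 and 2 of WT untreated skin and replicate 1 of WT MC903 skin (adjusted p = 0.0535 to 0.282). Pfkl lost it without replicate 1 or 2 of LN or replicate 1 of WT untreated skin (adjusted p = 0.0844 to 0.233). The enolase row Eno1 held 6 to 31 counts per library and a near-identical row, Eno1b, held 9 to 27, so the level of this abundant enzyme is uncertain. How reads shared by near-identical copies were counted is not given in the sources used here, which also touches Gapdh, Ldha and other enzymes with processed copies.

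All 4 genes of lactate handling passed the test. Ldha, the subunit that favours lactate formation, had 1257, 1332 and 1467 CPM in LN and 2419, 2667 and 2530.2 CPM in skin, with no overlap (0.91 ± 0.11, adjusted p = 4.39e-06). Ldhb, the subunit that favours pyruvate, went the other way, from 97.9, 111 and 82.8 CPM to 34.5, 45.2 and 29.1 CPM (-1.42 ± 0.20, adjusted p = 2.38e-05). The 2 subunits moved in opposite directions, and neither overlapped between the tissues. Slc16a1, which encodes the carrier MCT1, had 28.0, 39.1 and 49.7 CPM in LN and 191, 134 and 174 CPM in skin (2.10 ± 0.20, adjusted p = 3.22e-07). Slc16a3, which encodes the lactate exporter MCT4, had 8.74, 8.21 and 13.7 CPM in LN and 171, 79.9 and 91.7 CPM in skin (3.48 ± 0.40, adjusted p = 6.55e-06). Skin replicate 1 held about as much Slc16a3 as both other skin libraries together, and the lowest of them still lay far above LN.

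None of the 3 flux regulators rose. Pdk1, which encodes a kinase that shuts pyruvate dehydrogenase and is a known HIF target, had 102, 99.7 and 72.3 CPM in LN and 24.5, 18.7 and 17.2 CPM in skin. Every skin library was below every LN library, and Pdk1 fell by 4.53 times (-2.18 ± 0.23 on the log2 scale, adjusted p = 1.03e-06). Pfkfb3 (-0.41 ± 0.27, adjusted p = 0.203) and Pfkfb4 (-0.091 ± 0.45, adjusted p = 0.878), which set the level of the activator of phosphofructokinase, did not pass, with 95% intervals of -0.99 to 0.16 and -1.05 to 0.87.

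In oxygen sensing, Hif1a and Egln3 rose. Hif1a had 195, 199.8 and 262 CPM in LN and 677, 315 and 623 CPM in skin (1.30 ± 0.23, adjusted p = 0.000222). Skin replicate 2 was only a little above the highest LN library, and the other skin libraries were far above it. Egln3, the prolyl hydroxylase that low oxygen induces, had 6.14, 4.98 and 6.12 CPM in LN and 172, 162 and 157 CPM in skin. The libraries of each group lay close together, and the change of 4.83 ± 0.16 (28.4 times, adjusted p = 2.83e-12) had the smallest adjusted p of all members. Egln1 (0.56 ± 0.25, adjusted p = 0.0635) and Egln2 (0.24 ± 0.23, adjusted p = 0.405) did not pass, and Egln1 was called with other library scaling (relative log expression factors, adjusted p = 0.0454).

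Of the 11 HIF targets, 9 rose, Ddit4 fell and Ankrd37 did not pass. Ndrg1, a stress-induced gene linked to differentiation and growth arrest, had 16.5, 20.8 and 21.2 CPM in LN and 406, 333 and 359 CPM in skin (4.23 ± 0.18, adjusted p = 3.88e-11). Vegfa, which encodes the vascular endothelial growth factor, had 0, 1 and 9 counts in the LN libraries and 170, 236 and 207 counts in skin, or at most 0.282 CPM against 8.04, 10.4 and 11.1 CPM. Per kb of exon it was the lowest member in LN. Its log2 change of 6.46 ± 0.70 (adjusted p = 1.37e-06) rests on few LN counts, most of them in replicate 3, and was 8.84 without that library and 8.39 by limma-voom. Higd1a, a mitochondrial protein gene, had 63.0, 64.4 and 53.5 CPM in LN and 113, 164 and 138 CPM in skin (1.20 ± 0.14, adjusted p = 2.73e-06).

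Mxi1, which encodes an antagonist of MYC, had 5.93, 6.37 and 4.68 CPM in LN and 171, 190.3 and 145 CPM in skin (4.90 ± 0.51), and was chosen for description after its values were seen. Adm, which encodes adrenomedullin, had 0, 4 and 15 counts in LN and 91, 94 and 102 counts in skin, with a log2 change of 4.49 ± 0.85, or 6.06 without LN replicate 3 and 6.80 by limma-voom. Smaller rises were seen for the mitophagy receptors Bnip3 (1.46 ± 0.34) and Bnip3l (0.66 ± 0.13), the collagen prolyl hydroxylase P4ha1 (1.31 ± 0.19) and the histone demethylase Kdm3a (0.62 ± 0.17), as log2 change with SE. Ddit4, also called REDD1, an inhibitor of mTOR, had 80.0, 89.9 and 119 CPM in LN and 66.7, 39.3 and 57.6 CPM in skin, and fell (-0.82 ± 0.19, adjusted p = 0.00165). Ankrd37 missed the threshold narrowly (0.94 ± 0.39, adjusted p = 0.0511), although its libraries did not overlap, and was called by DESeq2 (adjusted p = 0.0261).

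**Figure D2:**
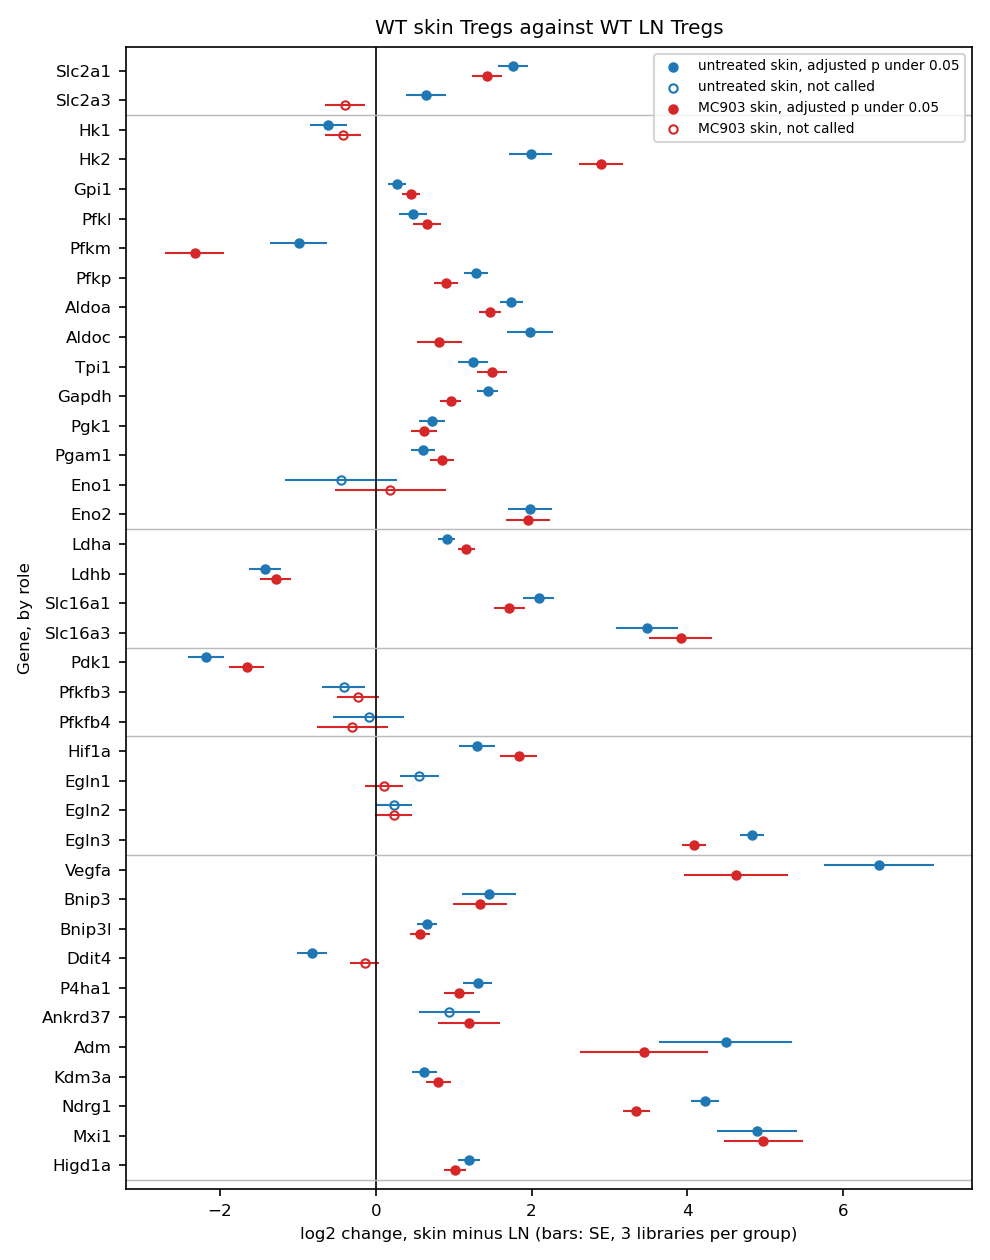
Points are log2 changes of each member in WT untreated skin (blue) and WT MC903 skin (red) against the same 3 WT LN libraries, with SE bars, and filled points passed at an adjusted p under 0.05. Egln3, Vegfa, Adm, Ndrg1 and Mxi1 lie to the far right, and Pdk1, Ldhb and Pfkm to the left, in both.

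In the authors' deposited table of LN against skin, 34 of the 38 members were called, 29 higher in skin and 5 higher in LN. Of the 13899 genes with an adjusted p in the authors' deposited table, 57% were called, 29.1% higher in skin and 27.9% higher in LN. The 32 members called here were called in the same direction in the authors' deposited table, and Egln1 and Ankrd37 were called there alone.

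The transcripts of several other kinds moved with the tissue. The 25 immediate early and heat shock genes, which respond to stress and to digestion of tissue, summed to 4768 to 5212 CPM in LN. Their sum was 24278 to 33898 CPM in WT untreated skin and 26832 to 32780 CPM in cKO untreated skin. Between WT LN and untreated skin 23 of them rose and 1 fell (background 28.8% higher, 28.8% lower). In the MC903 groups the sum was 15311 to 16830 CPM in WT and 15492 to 17092 CPM in cKO. Keratinocyte markers (17 genes) summed to 30.7 to 32.9 CPM in LN and to 435 to 835 CPM in WT untreated skin. B cell markers (11 genes in the table) summed to 230 to 859 CPM in LN, with replicate 3 highest, and to 8.51 to 12.8 CPM in WT untreated skin, where Ms4a1, Pax5, Cr2 and Bank1 were at 0. Macrophage, dendritic and Langerhans cell markers (17 genes in the table) summed to 799.7 to 2603 CPM in LN, with replicate 3 highest. In WT untreated skin they summed to 714 to 1480.4 CPM. Most of the mean sum was Cd74 (990 CPM in LN, 770 in skin), and 11 of the 17 genes reached a mean of 1 CPM in LN against 14 in skin. Fibroblast and endothelial markers (16 genes) summed to 175 to 210.1 CPM in LN and 226 to 306 CPM in WT untreated skin. In LN only 2 of these 16 reached a mean of 1 CPM, Pecam1 (132) and Thy1 (59.9). Mouse T cells also make both, so this sum does not measure fibroblast and endothelial RNA alone. In skin 13 did, with Thy1 (79.7), Sparc (44.8) and Fabp4 (27.2) highest. The part of these marker lists in the member results was not tested. Without LN replicate 3 and skin replicate 2 together, an alternative chosen after the data were seen, Egln3, Ndrg1, Hif1a and Slc2a1 remained called.

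WT Tregs of MC903-treated skin against the same LN libraries gave 27 members higher, 3 lower and 8 not called (background 26.5% higher, 24.5% lower, 51.1% either). Libraries lay apart from LN in 25 members upward and 4 downward (background 30.4% and 32.5%). Since both contrasts share their LN libraries, their values stand side by side here. The log2 change was 4.08 ± 0.15 for Egln3, 3.35 ± 0.18 for Ndrg1, 4.63 ± 0.67 for Vegfa (7.02 without LN replicate 3 and 6.56 by limma-voom) and 3.92 ± 0.41 for Slc16a3, where untreated skin gave 4.83 ± 0.16, 4.23 ± 0.18, 6.46 ± 0.70 and 3.48 ± 0.40. For Hk2 it was 2.89 ± 0.28, for Hif1a 1.84 ± 0.24, for Ldha 1.16 ± 0.11 and for Slc2a1 1.43 ± 0.19. The members lower in MC903 skin were Pfkm (-2.33 ± 0.38), Pdk1 (-1.66 ± 0.23) and Ldhb (-1.29 ± 0.20). Ankrd37 was called (1.20 ± 0.39) although replicate 2 of MC903 skin lay below LN, and Slc2a3 (-0.40 ± 0.25), Hk1 (-0.42 ± 0.23) and Ddit4 (-0.14 ± 0.19) were not. The calls of Pfkl (0.66 ± 0.18), Aldoc (0.82 ± 0.29) and Ankrd37 ended when single libraries were left out: Pfkl without replicate 3 of WT MC903 skin (adjusted p = 0.0522), Aldoc without replicate 1 or 3 of LN or 2 or 3 of WT MC903 skin (0.0678 to 0.127), and Ankrd37 without replicate 1 or 2 of LN or 1 or 3 of WT MC903 skin (0.0547 to 0.0802).

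Across all 12 skin libraries of both genotypes and treatments, 25 members lay above every LN library, 4 lay below (Hk1, Pfkm, Ldhb and Pdk1) and 9 overlapped with LN. Over all tested genes 19.3% lay above and 23.2% below. The 9 that overlapped were Slc2a3, Aldoc, Eno1, Pfkfb3, Pfkfb4, Egln1, Egln2, Ddit4 and Ankrd37.

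Levels of different members can be compared per length, as CPM per kb of exon sequence (union of GENCODE vM21 exons). On that scale Ldha was the highest member in every group, at 713 in LN and 1339.7 in WT untreated skin, followed by Gapdh (422 and 1142) and Aldoa (219 and 733). Egln3 stood at rank 30 of 38 in LN, with 2.16 CPM per kb, and at rank 12 in WT untreated skin, with 61.4. Ndrg1 moved from rank 25 (6.75) to rank 8 (127), and Mxi1 from rank 34 (0.850) to rank 23 (25.3). Pdk1 moved from rank 18 (17.6) to rank 31 (3.88). At the low end, Vegfa had 2.80 CPM per kb in skin and Hk2 had 2.12, both far under the abundant enzymes.

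Shares within families, from CPM per kb, show the change of form without a test. Egln3 made up 6.50 ± 1.87% (SD, n = 3) of the 3 Egln transcripts in LN and 61.8 ± 6.07% in WT untreated skin, while the share of Egln2 went from 85.1 ± 4.44% to 34.1 ± 6.14%. In MC903 skin the Egln3 share was 49.5 ± 3.23% in WT and 54.2 ± 7.56% in cKO, and in cKO untreated skin 67.1 ± 2.22%. Hk2 was 1.83 ± 0.580% of Hk1 and Hk2 together in LN, 11.1 ± 4.20% in WT untreated skin and 15.7 ± 2.26% in WT MC903 skin. Ldhb was 9.53 ± 1.72% of the lactate dehydrogenase pair in LN and 2.03 ± 0.380% in WT untreated skin. Slc16a3 was 20.8 ± 3.26% of the carrier pair in LN and 39.6 ± 6.67% in WT untreated skin. Under MC903 it was 53.1 ± 8.13% in WT, and in cKO Tregs it was 28.1 ± 2.33% untreated and 63.3 ± 12.1% under MC903.

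**Figure D3:**
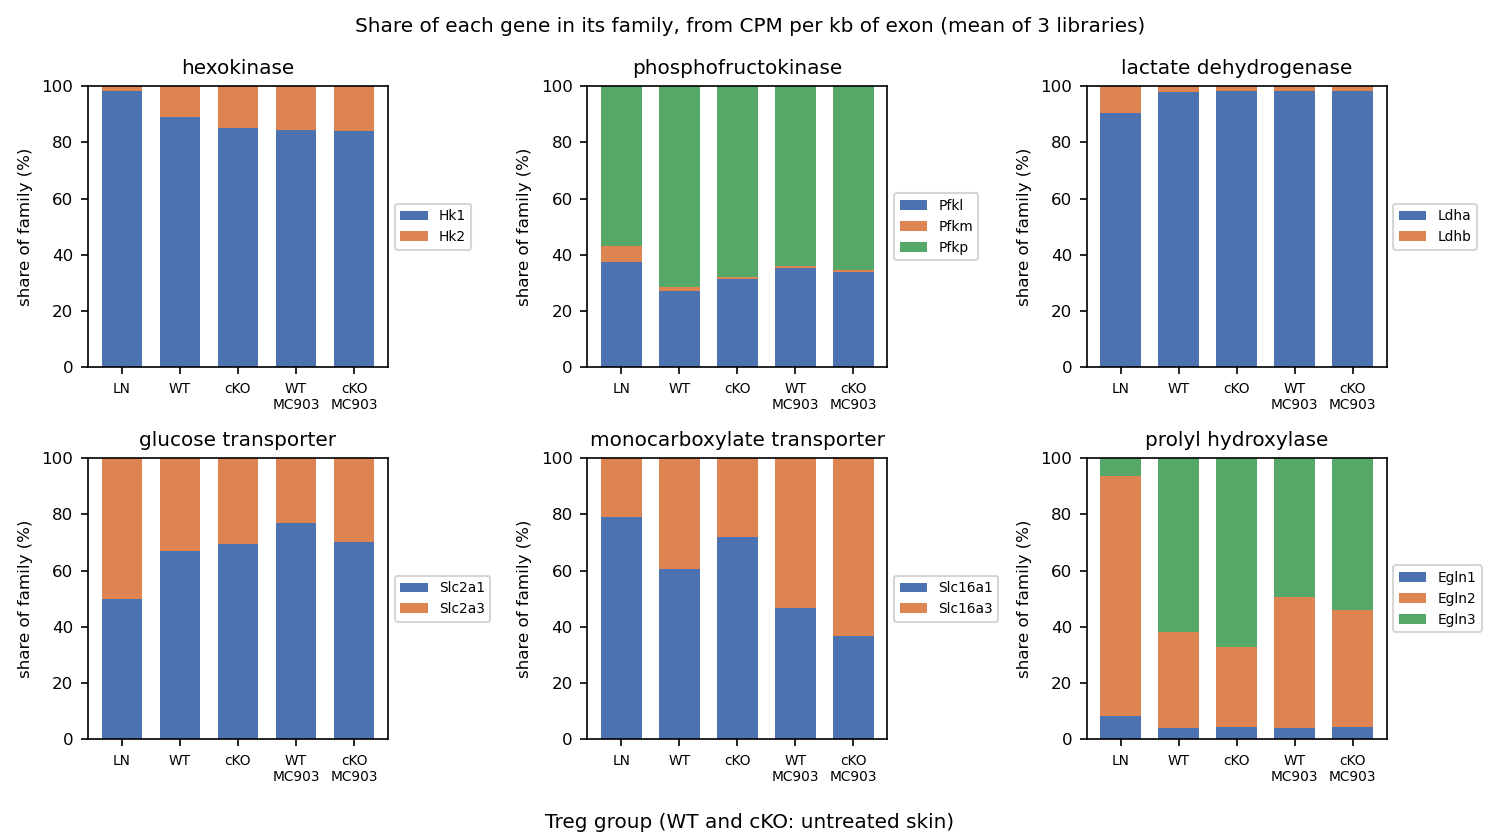
Stacked bars give the mean share (%) of each gene in its family from CPM per kb of exon in the 5 Treg groups, with 3 libraries each. The Egln3 share is 6.50% in LN and 49.5 to 67.1% in the skin groups, and Ldhb and Pfkm have their largest shares in LN.

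The genes around the members, described from lists chosen with results of these data known, did not all move with them. Of 22 other tested genes of glucose and pyruvate metabolism, 5 rose and 6 fell between WT LN and untreated skin (background 28.8% higher, 28.8% lower). The transporter Slc2a8 (1.82 ± 0.20) and the pyruvate kinase gene Pkm (0.72 ± 0.12) rose, and the galactose enzyme Galm (-1.75 ± 0.22) fell. Of the further kinases of pyruvate dehydrogenase, Pdk2 fell (-3.58 ± 0.49), Pdk4 rose (6.41 ± 2.12) and Pdk3 was not called (-0.23 ± 0.13). In the pentose phosphate pathway, which makes NADPH and ribose, none of 8 rose and 4 fell, with Rpe (-1.05 ± 0.18), Tkt (-0.60 ± 0.11) and H6pd (-1.28 ± 0.34) those with the smallest adjusted p. In glycogen handling 1 of 8 rose (Pygl, 2.37 ± 0.54) and 3 fell, among them Pgm2 (-1.06 ± 0.23) and Pygb (-0.75 ± 0.20).

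Other factors of the HIF pathway rose in 9 of 10 cases and none fell, where 28.8% of all tested genes rose and 28.8% fell. They include the HIF-2-alpha gene Epas1 (3.76 ± 0.39), Arnt2 (3.80 ± 0.38), which encodes a possible partner, and the coactivator gene Crebbp (1.52 ± 0.20). Vhl (0.41 ± 0.15), the HIF-1-alpha inhibitor gene Hif1an (0.79 ± 0.20) and Cited2 (3.53 ± 0.57) rose as well. Arnt itself was not called (0.34 ± 0.14, adjusted p = 0.0502, edgeR). Of 26 other hypoxia targets, 15 rose and 3 fell, with Rora (4.55 ± 0.17), the oxidoreductase gene Ero1l (2.82 ± 0.14) and the chemokine receptor gene Cxcr4 (3.53 ± 0.24) leading by adjusted p. Of 11 upstream regulators, 4 rose and 3 fell: Rheb, the activator of mTOR complex 1, was higher (1.99 ± 0.12), Irf4 was higher (1.59 ± 0.26) and Myc, which also drives glycolytic genes, was lower (-1.44 ± 0.19).

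The effect of the floxed Rora alleles was asked in untreated skin, in MC903 skin and as the mean of both. No member was called in any of these, where 0.803%, 0.258% and 1.75% of tested genes were. In the mean 0.884% of genes were higher and 0.862% lower. At an unadjusted p under 0.05 there were 6, 3 and 5 members, and 11.5%, 6.75% and 11.8% of tested genes. DESeq2 called no member in the single treatments and Ldha in the mean. The median log2 difference of the members, cKO minus WT, was 0.086 in untreated skin and -0.011 in MC903 skin, and over all tested genes it was -0.0049 and -0.0062.

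In untreated skin the members with the smallest p were Ddit4 and Hk2. The WT libraries held 66.7, 39.3 and 57.6 CPM of Ddit4 and the cKO libraries 79.1, 79.6 and 82.1 CPM, with no overlap (0.56 ± 0.19, adjusted p = 0.250, edgeR). For Hk2 the WT libraries held 13.9, 12.3 and 9.48 CPM and the cKO libraries 23.5, 16.4 and 20.2 CPM, also apart (0.75 ± 0.26, adjusted p = 0.265). Over the 24 alternatives the adjusted p ran from 0.115 to 0.527 for Ddit4 and from 0.158 to 0.452 for Hk2. Libraries were apart, with cKO higher, in 6 members (background 7.37%) and, with cKO lower, in 2 (background 6.22%).

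In MC903 skin the smallest p belonged to Slc2a3 and Aldoc, and the libraries were apart in 3 members upward and 2 downward (background 7.81% and 8.19%). For Slc2a3 the WT libraries held 39.0, 47.8 and 63.1 CPM and the cKO libraries 95.8, 70.4 and 76.2 CPM, just apart (0.69 ± 0.26, adjusted p = 0.520, edgeR). Aldoc, the brain form of aldolase, was at 5.94, 12.6 and 13.5 CPM in the WT libraries against 22.3, 12.8 and 19.1 CPM in cKO, and overlapped (0.76 ± 0.29, adjusted p = 0.545). As the mean of both treatments, the Ldha difference was 0.25 ± 0.078 (adjusted p = 0.156), with every cKO library above every WT library of its treatment. Its values were 3408, 2896 and 3034 CPM in cKO untreated skin, 2998, 2731 and 3362 CPM in WT MC903 skin and 3553, 3526 and 3404 CPM in cKO MC903 skin. DESeq2 gave this difference an adjusted p of 0.0243, and it is the sole member called by any of the alternatives in the genotype contrasts. For Pfkm the mean difference was -0.78 ± 0.27 (adjusted p = 0.206), at 2.88, 2.11 and 2.77 CPM in cKO untreated and 1.64, 1.50 and 1.38 CPM in cKO MC903 skin.

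The intervals of the genotype difference bound what these libraries can show. In untreated skin the 95% interval of the log2 difference was -0.24 to 0.32 for Egln3, -0.12 to 0.68 for Slc2a1, 0.028 to 1.01 for Hif1a and -1.39 to 0.83 for Vegfa. In MC903 skin it was -0.019 to 0.54, -0.20 to 0.60, -0.38 to 0.60 and -1.39 to 0.87 for the same genes. Egln3 had 156, 161 and 187 CPM in cKO untreated skin, Slc2a1 had 209, 211 and 211 CPM, Hif1a had 713, 786 and 815 CPM and Vegfa had 8.13, 8.06 and 8.20 CPM. All these libraries lay above every LN library. Mxi1 spread most among cKO untreated libraries, at 149, 390.0 and 276 CPM. Outside the members, Ldhd and Bpgm were lower in cKO as the mean of both treatments. Ldhd, which encodes a mitochondrial D-lactate dehydrogenase, was scarce, at 0.598, 0.557 and 0.505 CPM in WT MC903 skin and 0 in every cKO MC903 library. Bpgm, whose enzyme makes bisphosphoglycerate, changed by -0.63 ± 0.11 on the log2 scale (adjusted p = 0.00587).

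**Figure D4:**
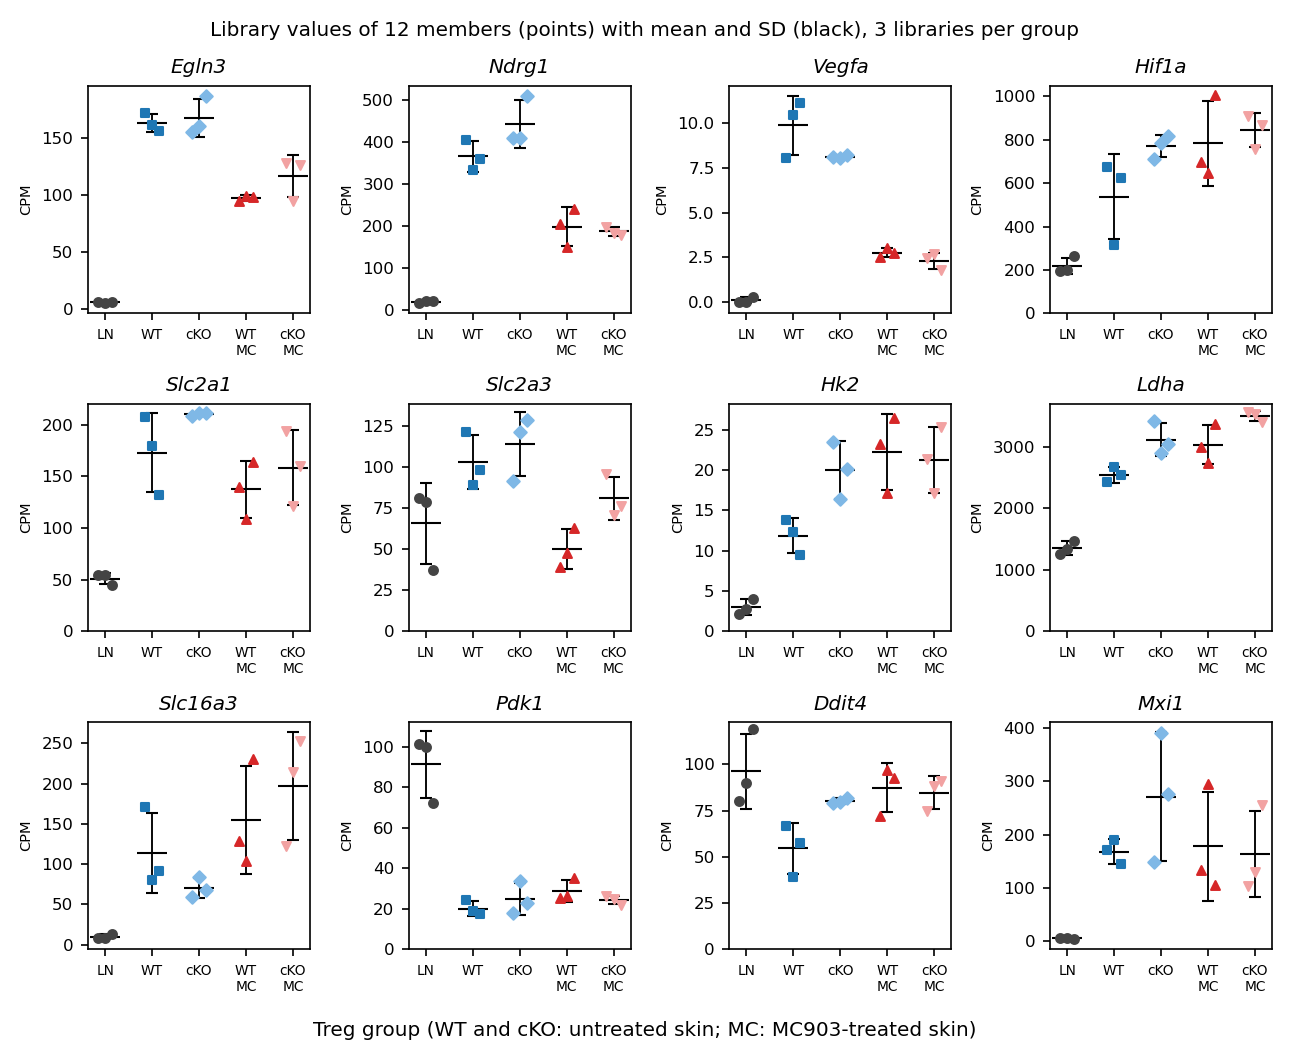
Points are CPM in each of the 3 libraries of the 5 Treg groups for 12 members, with the group mean and SD in black and each vertical axis scaled to its gene. Egln3, Ndrg1 and Vegfa are highest in untreated skin of either genotype and lower in MC903 skin, Pdk1 is highest in LN, and Mxi1 and Slc16a3 spread widely within groups.

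MC903-treated skin Tregs were compared with untreated ones within each genotype. In WT, 2 members rose and 7 fell (background 5.03% higher, 5.44% lower), and in cKO 1 rose and 4 fell (background 5.96% higher, 5.3% lower). The HIF targets Ndrg1 and Vegfa and the oxygen sensor Egln3 fell in both genotypes. The median log2 change of the members was -0.060 in WT and -0.11 in cKO, and that of all tested genes 0.011 and -0.010. The immediate early and heat shock list differed too, with 17 of 25 genes lower in WT and 16 of 25 lower in cKO MC903 skin. In all these contrasts the site, ears against back skin with ears, cannot be told apart from the treatment. Fibroblast and endothelial markers summed to 225 to 502 CPM in WT and 278 to 706 CPM in cKO MC903 skin, against 226 to 306 CPM and 136 to 395 CPM untreated. Macrophage, dendritic and Langerhans cell markers went from 714 to 1480.4 CPM untreated to 525 to 679 CPM under MC903 in WT, without overlap, and from 862 to 1896 CPM to 781 to 1064 CPM in cKO. Keratinocyte markers went from 435 to 835 CPM to 192 to 505 CPM in WT, and from 383 to 529.7 CPM to 163 to 336 CPM in cKO, where they did not overlap. Mast cell, basophil and granulocyte markers (10 genes in the table) went from 0.378 to 12.8 CPM to 1.11 to 39.4 CPM in WT, and from 0.259 to 0.430 CPM to 13.5 to 45.6 CPM in cKO, without overlap. With the 3 libraries of most fibroblast and endothelial marker RNA left out, an alternative chosen after the data were seen, 4 members were called in WT and 3 in cKO. Thy1 and Pecam1, which T cells also make, were among the 3 highest genes of that list in both MC903 groups. The part of these lists in the member results was not tested.

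The counts of calls under MC903 were sensitive to single libraries. Without replicate 2 or 3 of WT untreated skin 5 and 4 members were called in WT, and without replicate 1, 2 or 3 of WT MC903 skin 3, 4 and 4. In cKO 2 and 1 were called without replicate 2 or 3 of untreated skin, and 1 and 2 without replicate 2 or 3 of MC903 skin. With the compared groups fitted alone, 4 were called in WT. With limma-voom and sample weights, 10 were called in cKO. The share of all tested genes called under each alternative is not given here. These counts therefore do not tell a change in the members from a change in the call rate of all genes.

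Egln3 had 95.0, 99.5 and 98.0 CPM in WT MC903 skin, all below the untreated libraries, and fell, with a log2 change of -0.75 ± 0.13 (adjusted p = 0.00251, edgeR). In cKO it had 128, 95.1 and 127 CPM and fell too, with a change of -0.52 ± 0.13 (adjusted p = 0.0181). Ndrg1 had 204, 149.8 and 242 CPM in WT (-0.88 ± 0.16, adjusted p = 0.00304). In cKO it went from 409, 410.4 and 509.6 CPM untreated to 199, 183 and 179 CPM under MC903 (-1.24 ± 0.16, adjusted p = 0.000267), the smallest adjusted p of any member under MC903. Under MC903 Vegfa was at 2.50, 3.05 and 2.76 CPM in the WT libraries and 2.46, 2.67 and 1.81 CPM in those of cKO, well below every untreated skin library (-1.83 ± 0.54 and -1.81 ± 0.54, adjusted p = 0.0411 and 0.0425). These 3 transcripts stayed far above LN under MC903.

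Of these calls, Egln3 and Ndrg1 in WT and Ndrg1 in cKO remained under all 24 alternatives. Egln3 in cKO was not called without replicate 3 of cKO untreated skin or replicate 2 of cKO MC903 skin (adjusted p = 0.0976 and 0.101). Vegfa in WT was not called without any of 11 libraries, which are all but those of LN and replicate 3 of cKO MC903 skin (adjusted p = 0.0508 to 0.133). In cKO it was not called without any of 10, which are all but those of LN, replicate 2 of WT untreated skin and replicate 2 of WT MC903 skin (adjusted p = 0.0505 to 0.122).

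The other called members passed the test in one genotype and not in the other, and the difference between genotypes was not called for any of them. In WT, Hk2 rose to 23.2, 17.1 and 26.4 CPM (0.90 ± 0.26, adjusted p = 0.0373, edgeR) and Ddit4 rose to 72.2, 97.1 and 92.7 CPM (0.68 ± 0.19, adjusted p = 0.0317). Slc2a3 fell (-1.04 ± 0.26, adjusted p = 0.0181), and so did Aldoc (-1.16 ± 0.29, adjusted p = 0.0183) from 21.7, 19.5 and 30.5 CPM in untreated skin. Pfkm fell to 2.21, 1.78 and 2.41 CPM (-1.34 ± 0.37, adjusted p = 0.0329) and Gapdh to 1303, 1127 and 1258 CPM (-0.47 ± 0.13, adjusted p = 0.0343). In each of these 6 genes the treated and untreated WT libraries did not overlap, which was so for 4 members upward and 8 downward in all (background 15% and 13.2%).

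Each of these 6 calls ended with single libraries left out. Hk2 was lost without replicate 2 or 3 of WT untreated skin or 1 or 3 of WT MC903 skin (adjusted p = 0.0810 to 0.138), and Ddit4 without replicate 2 or 3 of either group (0.113 at most). Slc2a3 was lost without replicate 1 of WT untreated skin or 1 or 2 of WT MC903 skin (0.0568 to 0.0920), and Aldoc without replicate 3 of WT untreated skin or 1 of WT MC903 skin (0.0623 and 0.0694). Pfkm was lost without replicate 1 or 2 of LN, 2 of WT untreated skin or any of WT MC903 skin (0.0505 to 0.163), and Gapdh without replicate 2 or 3 of WT untreated skin or any of WT MC903 skin (0.0545 to 0.123).

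In cKO Tregs the carriers of lactate moved in opposite directions under MC903. Slc16a3 went from 59.5, 83.7 and 68.4 CPM untreated to 123, 215 and 253 CPM and rose (1.48 ± 0.36, adjusted p = 0.0200, edgeR). Slc16a1 went from 152, 190.2 and 196 CPM to 123, 105 and 92.7 CPM and fell (-0.75 ± 0.19, adjusted p = 0.0208). Neither pair of groups overlapped. In WT the MC903 libraries held 129, 104 and 231 CPM of Slc16a3 (0.44 ± 0.36, adjusted p = 0.490) and 117, 124 and 143 CPM of Slc16a1 (-0.38 ± 0.19, adjusted p = 0.231), and neither passed. The interaction for Slc16a3 was 1.04 ± 0.51 (adjusted p = 0.866), so the genotypes were not shown to differ. Without any cKO untreated library or replicate 2 or 3 of cKO MC903 skin the Slc16a3 call ended (adjusted p = 0.0521 to 0.0820), and the Slc16a1 call ended without replicate 2 or 3 of either cKO group (0.0793 to 0.0892).

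**Figure D5:**
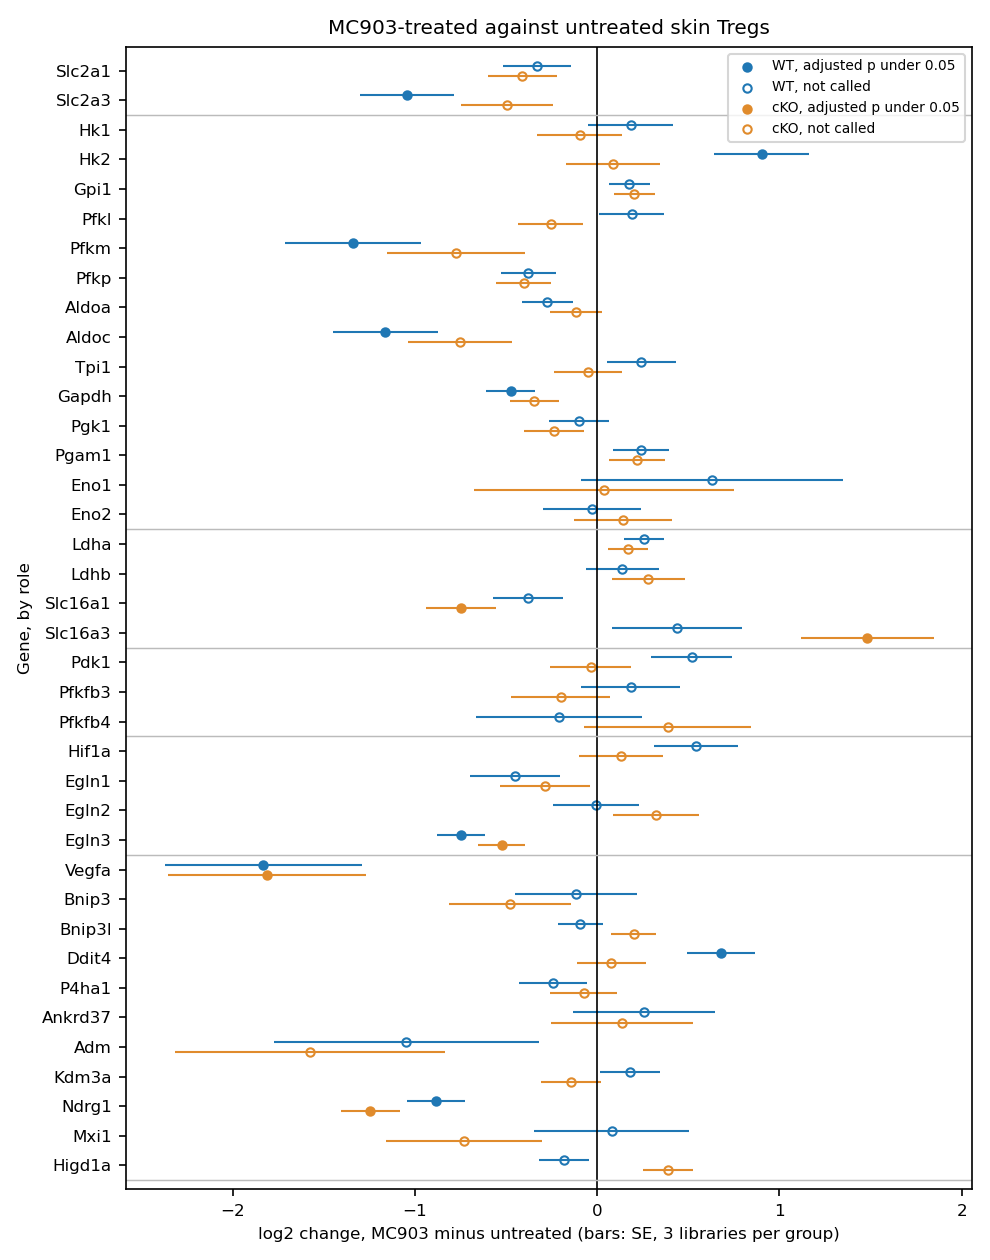
Points are log2 changes of each member, MC903-treated minus untreated skin Tregs, in WT (blue) and cKO (orange), with SE bars, and filled points passed at an adjusted p under 0.05. Ndrg1, Egln3 and Vegfa are filled on the left in both genotypes, and Slc16a3 is filled on the right in cKO alone.

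Members that showed no call under MC903 in either genotype included Slc2a1, with WT libraries at 139.7, 109 and 164 CPM and cKO libraries at 194, 121 and 160.2 CPM (-0.33 ± 0.19 and -0.41 ± 0.19). For Hif1a the WT libraries held 697, 647 and 1007 CPM and the cKO libraries 908, 758 and 869 CPM (0.54 ± 0.23, 95% interval 0.051 to 1.03, and 0.13 ± 0.23, 95% interval -0.36 to 0.62). Ldha changed by 0.26 ± 0.11 in WT (adjusted p = 0.154) and 0.17 ± 0.11 in cKO, and Hk2 in cKO, at 21.3, 17.2 and 25.3 CPM, by 0.089 ± 0.26.

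The genotype by MC903 interaction called 0 members and 0 genes (0%) by edgeR. At an unadjusted p under 0.05 it had 3 members and 765 genes (5.63%), and DESeq2 called 17 genes, no member among them. Higd1a had the smallest p among the members: MC903 minus untreated was -0.18 ± 0.14 in WT and 0.39 ± 0.14 in cKO, a difference of 0.57 ± 0.19 (adjusted p = 0.866). Its libraries held 128, 104 and 101 CPM in cKO untreated, 120.4, 123 and 124 CPM in WT MC903 and 141, 149 and 147 CPM in cKO MC903 skin, so that the cKO groups were apart and the WT groups overlapped. For Ddit4 the difference was -0.60 ± 0.27 (adjusted p = 0.866), and its cKO MC903 libraries held 74.8, 88.3 and 91.2 CPM.

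Around the members, Epas1 and Arnt2 moved in opposite directions under MC903. Epas1 rose in WT (1.77 ± 0.34) and in cKO (1.89 ± 0.34), while Arnt2 fell in both (-2.28 ± 0.35 and -2.02 ± 0.35), and these were the only ones of 10 called in either genotype. Of 26 other hypoxia targets 3 fell in WT and 3 fell and 2 rose in cKO. The background was 5.03% higher and 5.44% lower in WT, and 5.96% higher and 5.3% lower in cKO. Ero1l (-0.66 ± 0.13 and -0.72 ± 0.13), Wsb1 (-0.47 ± 0.13 and -0.49 ± 0.13) and Rora (-0.82 ± 0.15 and -0.95 ± 0.15) fell in both, and in cKO the heme oxygenase gene Hmox1 rose (0.96 ± 0.25). In the pentose phosphate pathway 3 of 8 genes rose in WT, G6pdx (0.57 ± 0.16), Pgd (0.65 ± 0.19) and Rpe (0.64 ± 0.18), and none passed in cKO. Txnip, which encodes an inhibitor of glucose uptake, fell in both (-0.53 ± 0.14 and -0.59 ± 0.14), Myc rose in WT (0.92 ± 0.19) and Irf4 fell in cKO (-1.30 ± 0.25).

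Within groups the members differed in how closely their libraries lay. The median coefficient of variation over the 5 groups was 3.62% for Bnip3l, 6.14% for Gpi1, 7.89% for Ldha and 9.99% for Egln3, and 44.4% for Mxi1, 36.4% for Ankrd37, 33.9% for Slc16a3 and 33.2% for Pfkfb4.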

How the data were processed

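RNA of sorted mouse Tregs was made into 15 libraries with SMART-Seq v4 and sequenced as single reads of 75 bases, per the labels' protocols. The authors deposited raw counts per gene and, for LN against skin, a table with log2 fold changes and adjusted p-values. TopHat2 2.0.6, the mm9 build and DESeq2 are named per the submitters' processing notes, and the counting tool, annotation and strand setting are not given in the sources used here. Genes were kept by edgeR's filterByExpr, libraries were scaled by TMM, and contrasts of 5 groups were tested with edgeR 4.0.16 (robust quasi-likelihood F test, R 4.3.3) with Benjamini-Hochberg adjustment over 13578 genes. SE is the log2 change divided by the root of F. Scripts were tested on simulated data. Alternatives used DESeq2 1.42.0, limma 3.58.1, other filters and scaling, and omitted libraries. The common biological coefficient of variation was 37.2%, which limits what 3 libraries a group can show. Replicates of a group differed beyond counting noise in 45.7 to 72.6% of genes. Named genes were the transporter Slc2a1, Hk2, Ldha, Hif1a, Egln3 and Vegfa in each comparison and, by role, the leading genes by adjusted p, upward and downward. The members and lists were chosen with earlier results of these data known.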

Additional observations from a re-analysis of the deposited data

How the results depend on the processing

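Of the named or called results, 27 of 32 (WT untreated skin against LN), 27 of 30 (WT MC903 skin against LN), 2 of 9 (MC903 in WT) and 1 of 5 (MC903 in cKO) remained called under all 24 alternatives, and none reversed. With only the compared groups fitted, 3 members were lower in untreated skin than in LN, and under MC903 in WT 0 were higher and 4 lower, 4 in all. With limma-voom 5 were lower in MC903 skin than in LN, 1 was higher under MC903 in WT, and in cKO 2 were higher and 8 lower, 10 in all. DESeq2 called 1 member higher, Ldha, in the mean genotype contrast, 1 in all. Without both WT untreated skin replicate 2 and LN replicate 3, 0 were higher under MC903 in WT and 2 in cKO. With the 3 libraries of most fibroblast and endothelial marker RNA left out, 0 were higher and 4 lower in WT, 4 in all, and 0 were higher and 3 called in cKO. On the given strand alone AGGTCA stood in 3 of 35 members (8.57%), against 9.90% of all genes. The cause was not tested. Leaving out 1 library gave 28 to 33 called (25 to 28 higher, 3 to 5 lower) for untreated skin against LN, 27 to 31 (24 to 27, 3 to 4) for MC903 skin against LN, 3 to 9 (0 to 2, 2 to 7) for MC903 in WT, 1 to 7 (0 to 2, 1 to 5) in cKO, and 0 for genotype and interaction. Same-numbered libraries did not deviate together (30 pairs, correlations of -0.28 to 0.22, 3 over 0.1, 6 libraries closest to their own number). With the replicate number as a block 31, 30, 7 and 4 members were called in these 4 comparisons, and 0 for genotype. Shares of all genes called under these alternatives are not given here. Other scalings moved the median of all genes by at most 0.046 (log2). Low counts of Vegfa, Adm and Eno1 limit their folds.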
